A study of Mus musculus with 24 samples.

Results

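MHC class II presentation and costimulation was followed through 10 genes in the injured mouse brain, namely H2-Aa, H2-Ab1, H2-Eb1, H2-DMa, H2-DMb1, Cd74, Ciita, Cd86, Cd80 and Cd40. They were chosen by symbol, and each symbol matched 1 of the 36333 genes in the expression table. RNA came from 24 male mice at 5 days post injury (dpi), aged 12 to 16 weeks, with 1 library per mouse and no pooling. In 20 mice traumatic brain injury (TBI) was made by controlled cortical impact (CCI), a piston strike on the exposed cortex. Of these, 5 received vehicle. Another 5 were fed PLX3397, an inhibitor of the receptor CSF1R on which microglia depend, at 290 mg per kg of chow from 90 min after CCI until 5 dpi. A further 5 received Anakinra, which blocks the interleukin-1 receptor IL1R1, as subcutaneous injections of 100 mg/kg at 5 min, 24 h, 48 h and 72 h after CCI. The last 5 received both drugs on the same schedules (PLX3397+Anakinra). The sham group of 4 mice had a skin incision without craniotomy or impact, so that the comparison with sham covers opening the skull as well as the blow. The labels give the strain as C57BL6N and the tissue as cortex, whereas the study's methods name C57BL/6JRj mice and a tissue block that also held striatum, dorsal hippocampus and thalamus. No cells were sorted.

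Class II molecules are pairs of an alpha and a beta chain that carry peptides from the endosome to the surface, where CD4+ T cells read them. In the endosome the invariant chain guards the groove until proteases remove it, and H2-DM, itself an alpha and beta pair, helps to exchange its last fragment for antigen peptide. Ciita is the coactivator that class II promoters need. CD86 and CD80 are ligands of CD28 and CTLA4 on T cells, and CD40 receives the T cell ligand CD40L. In the healthy brain class II is low and is found mainly on border macrophages and dendritic cells, and microglia raise it after injury.

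Promoters of class II genes share an X box, bound by the RFX complex, and a Y box, bound by NF-Y, and Ciita docks on the assembled proteins. The RefSeq promoter table (GRCm38.p6, 250 bases before to 50 bases after each start) held 6 promoters of 5 of the genes. The 3 below are shown because in each the strings of both boxes stood in order and close together. Each line gives the 150 bases before the start site, 5′ to 3′ on the gene's strand, with 6 bases of the X box (GNAACT) and 6 of the Y box (GATTGG) in capitals. All are on chromosome 17 within the major histocompatibility complex.
H2-Aa, chr17:34287824-34287973, minus strand: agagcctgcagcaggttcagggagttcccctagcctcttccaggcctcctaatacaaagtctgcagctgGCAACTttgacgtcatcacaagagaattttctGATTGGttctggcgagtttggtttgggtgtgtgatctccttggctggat
H2-Eb1, chr17:34305717-34305866, plus strand: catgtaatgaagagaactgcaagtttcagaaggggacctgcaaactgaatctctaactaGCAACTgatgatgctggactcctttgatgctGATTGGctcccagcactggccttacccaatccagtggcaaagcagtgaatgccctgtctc
H2-DMb1, chr17:34153041-34153190, plus strand: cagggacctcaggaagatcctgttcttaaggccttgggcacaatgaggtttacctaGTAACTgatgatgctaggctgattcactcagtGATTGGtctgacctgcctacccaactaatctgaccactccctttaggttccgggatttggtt

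In H2-Aa the boxes lay between 81 and 44 bases before the start site and were separated by 26 bases. In H2-Eb1 they lay between 91 and 55 bases before it, 25 bases apart, and in H2-DMb1 between 94 and 57 bases before it, 26 bases apart. The pair of strings, GNAACT followed by GATTGG after 10 to 30 bases on either strand, was written down after these promoters had been read. It occurs in 107 of the 32851 promoters in the table (0.326%). GATTGG alone occurs in 16.1% of them and GNAACT alone in 42.8%. A window of H2-DMa held both strings but not in this order and spacing, and a window of Cd80 held GNAACT alone. The last of the 6 promoters held neither string. This says nothing of the factors that bind there.

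Expression was deposited as TPM, transcripts per gene length scaled to 1000000 per library, without read counts, so that the sequencing depth is unknown and precision rests on the spread between mice. Between 22160 and 23249 genes per library were above 0. All 10 genes passed the filter of a mean of at least 0.5 TPM, as did 17267 genes in all, and were above 0 in all 24 libraries. Differences are log2 fold changes of log2(TPM + 1) from limma with the 24 libraries in 1 fit, and every p is adjusted over the 17267 genes by Benjamini-Hochberg unless it is called unadjusted. A gene was called when its adjusted p was below 0.05. The added 1 shrinks the fold of genes near 1 TPM, so ratios of mean TPM are given for Ciita, Cd80 and Cd40. The sham libraries held the cortical marker Slc17a7 (mean of 1157 TPM) and also the striatal markers Ppp1r1b and Drd1 (670 and 46.8 TPM), so that the tissue was not cortex alone. Vehicle mouse J17B had the lowest value of its group for 7 of the 10 genes, and results that turn on it are named.

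Injury raised all 10 genes in vehicle-treated mice over sham. This direction is common at 5 dpi, since 26.6% of all tested genes rose in this comparison. The 3 class II chains, the invariant chain, Cd86 and H2-DMb1 had ratios of mean TPM between 4.30 (H2-DMb1) and 7.75 (H2-Ab1), with Cd86 at 6.41 and Cd74 at 6.29, and H2-DMa had the lowest at 1.18. In 9 genes no vehicle mouse overlapped a sham mouse, the exception being H2-DMa (21.7% of all tested genes lay wholly above sham). The median log2 fold change was 1.89 over the 10 genes and -0.013 over all tested genes.

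H2-Aa, the I-A alpha chain, was at 5.71, 4.82, 4.10 and 5.46 TPM in the sham mice. In vehicle mice it was at 29.6, 16.6, 32.7, 39.2 and 26.9 TPM (J01B, J17B, J18B, J19B and J20B, in this order throughout). Even the lowest vehicle mouse, J17B, stood far above the highest sham mouse, and the log2 fold change was 2.27 ± 0.19 (SE, adjusted p = 4.41e-10). The beta chain H2-Ab1 rose from 5.12, 3.87, 3.46 and 2.31 TPM in sham to 33.6, 16.0, 33.6, 39.9 and 19.9 TPM. Its log2 fold change of 2.62 ± 0.22 (SE, adjusted p = 2.78e-10) was the highest of the 10. The I-E beta chain H2-Eb1 rose from 3.40, 2.52, 2.78 and 2.90 TPM to 24.0, 11.7, 21.5, 28.1 and 15.1 TPM (log2 fold change 2.37 ± 0.18, SE). The gene of its partner, the I-E alpha chain, is listed only as H2-Ea-ps and was at 0 in all 24 libraries. The rise of H2-Eb1 RNA therefore says nothing of I-E molecules, which were not measured.

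Cd74, the invariant chain, was the most abundant of the 10 per length. It rose from 9.04, 7.38, 6.46 and 5.68 TPM in sham to 58.6, 21.9, 50.3, 54.6 and 39.1 TPM in vehicle mice. Mouse J17B was low here as in the class II chains, and the groups did not overlap (log2 fold change 2.44 ± 0.20, SE, adjusted p = 2.12e-10). H2-DMb1, the beta chain of the peptide exchange factor, was between 2.99 and 4.11 TPM in sham and at 10.5, 11.7, 18.5, 18.1 and 14.3 TPM in vehicle mice. The alpha chain H2-DMa was between 5.01 and 6.02 TPM in sham and between 6.01 and 7.01 TPM in vehicle mice. The log2 fold changes of these partner chains were 1.80 ± 0.16 for H2-DMb1 and 0.20 ± 0.07 for H2-DMa (SE), and the difference between the genes was not tested. The adjusted p of H2-DMa was 0.0238, and this call was lost without sham mouse J08 or J15 or vehicle mouse J01B (adjusted p = 0.0609, 0.0941 and 0.0555). It was also lost in a limma fit of sham and vehicle mice alone (adjusted p = 0.0511).

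Among the costimulatory genes Cd86 moved most. It was at 1.14, 1.05, 1.23 and 1.44 TPM in sham and at 7.28, 6.83, 8.65, 7.67 and 8.43 TPM in vehicle mice, with little spread within either group. The log2 fold change was 1.99 ± 0.12 (SE, adjusted p = 1.07e-12). Cd80, the other CD28 ligand, rose from a mean of 0.850 ± 0.214 (SD, n = 4) to 1.81 ± 0.496 TPM (SD, n = 5), a ratio of 2.13 (adjusted p = 0.00297). Cd40 rose from 0.602 ± 0.167 to 1.58 ± 0.519 TPM, a ratio of 2.62 (adjusted p = 0.00389). Ciita rose from 0.427 ± 0.137 to 0.836 ± 0.137 TPM, a ratio of 1.96 (adjusted p = 0.0049). These 3 remained below 2.5 TPM in every mouse.

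**Figure D1:**
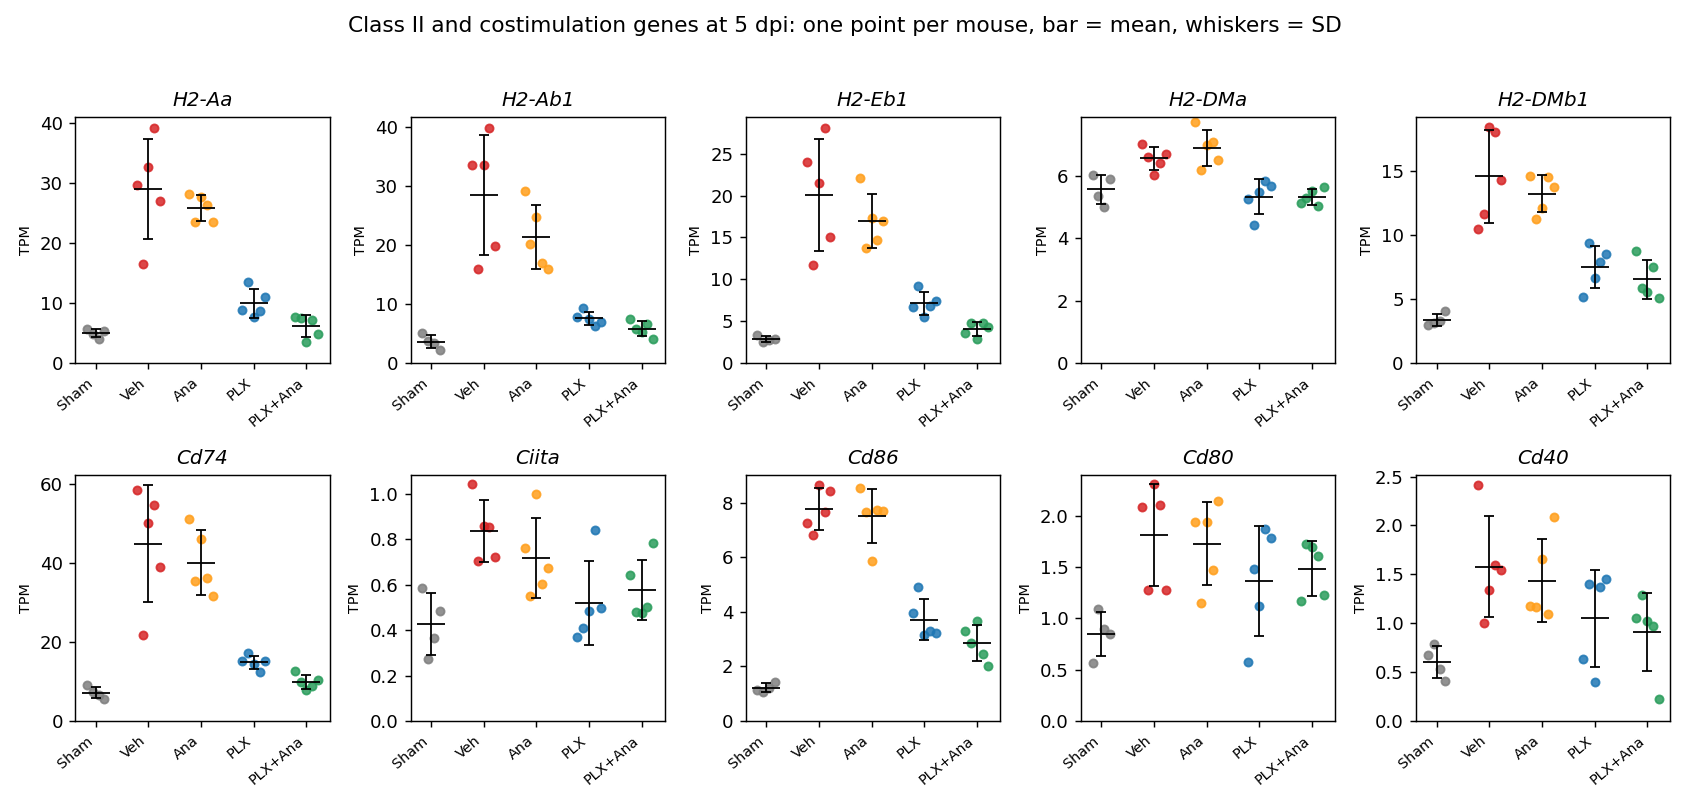
TPM of the 10 genes (linear axes, 1 panel per gene) in sham (n = 4), vehicle (Veh), Anakinra (Ana), PLX3397 (PLX) and PLX3397+Anakinra mice (n = 5 each), with 1 point per mouse, the mean and SD. H2-Aa, H2-Ab1, H2-Eb1 and Cd74 sit low in sham and in both groups given PLX3397 and high in the vehicle and Anakinra mice, while Cd80 and Cd40 overlap among the TBI groups.

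PLX3397 lowered 7 of the 10 genes against vehicle, where 6.66% of all tested genes fell. The 3 class II chains, Cd74, both H2-DM chains and Cd86 fell, and in each of these no PLX3397 mouse overlapped a vehicle mouse (4.91% of all tested genes lay wholly below vehicle). Ciita, Cd80 and Cd40 did not pass the test. The median log2 fold change was -0.88 over the 10 genes and 0.0063 over all tested genes. In bulk tissue, fewer cells of a type and less RNA per cell cannot be told apart.

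H2-Ab1 was at 7.78, 9.33, 7.48, 6.42 and 7.09 TPM in the PLX3397 mice (J01, J02, J12, J19 and J20, in this order). All 5 were below the lowest vehicle mouse, at 16.0 TPM, and the log2 fold change was -1.71 ± 0.21 (SE, adjusted p = 1.73e-06). H2-Aa was at 8.81, 13.6, 7.76, 8.66 and 11.1 TPM (log2 fold change -1.42 ± 0.18, SE, adjusted p = 4.85e-06), and H2-Eb1 at 6.68, 9.18, 5.50, 6.88 and 7.46 TPM (-1.32 ± 0.17, adjusted p = 5.98e-06). Cd74 was at 15.2, 17.1, 14.4, 12.5 and 15.1 TPM, with a log2 fold change of -1.46 ± 0.19 (SE, adjusted p = 4.92e-06). Mouse J02 was the highest of the group in all 4 of these genes.

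H2-DMb1 was at 5.17, 9.44, 6.66, 7.88 and 8.53 TPM and fell by 0.86 ± 0.15 on the log2 scale (SE, adjusted p = 0.000327). For H2-DMa the mean went from 6.55 ± 0.369 TPM in vehicle to 5.32 ± 0.552 TPM with PLX3397 (SD, n = 5). This is a log2 fold change of -0.26 ± 0.07 (SE, adjusted p = 0.0179), a call that was lost without PLX3397 mouse J02 (adjusted p = 0.0604). The call was also lost in a limma fit of vehicle and PLX3397 mice alone (adjusted p = 0.0799). Cd86 was at 3.98, 4.91, 3.17, 3.30 and 3.21 TPM, with a log2 fold change of -0.90 ± 0.12 (SE, adjusted p = 4.27e-06). The PLX3397 mice lay between the sham and the vehicle mice without overlapping either.

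Cd80 ranged from 0.569 to 1.87 TPM with PLX3397 and from 1.28 to 2.31 TPM with vehicle, a log2 fold change of -0.26 with a 95% confidence interval from -0.58 to 0.05 (adjusted p = 0.313). Cd40 ranged from 0.400 to 1.45 TPM against 1.00 to 2.41 TPM, a log2 fold change of -0.34 (interval -0.71 to 0.02, adjusted p = 0.251). Ciita was at 0.371, 0.411, 0.485, 0.838 and 0.497 TPM, so that J19 stood apart and overlapped the vehicle mice (0.702 to 1.04 TPM). Its ratio of means was 0.623 (adjusted p = 0.0807), and without J19 Ciita was called lower (log2 fold change -0.35, adjusted p = 0.0268).

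Markers of myeloid cells moved with these genes. All 11 microglia markers fell with PLX3397 (median log2 fold change -1.35, 6.66% of all tested genes fell), among them Csf1r, the target of the drug. Their summed level was 379 to 404 TPM in sham, 1549 to 1990 TPM in vehicle and 670 to 1027 TPM in PLX3397 mice. Of 8 border macrophage markers 7 fell (median -1.13, sums 141 to 281 TPM in vehicle and 66.9 to 119 TPM with PLX3397), and all 8 pan-myeloid markers fell (median -1.23, sums 1177 to 1800 and 600 to 987 TPM). All 5 red blood cell markers fell as well, from sums of 1507 to 4406 TPM in vehicle to 606 to 1072 TPM, and none of the 5 was called in vehicle against sham. Of 4 tested monocyte and neutrophil markers Ccr2 fell (log2 fold change -0.84, adjusted p = 0.000132). The other 3, S100a8, S100a9 and Ly6c2, were at 0.73, 0.58 and 0.26 without passing the test, and the list's median was 0.42. Of 10 markers of neurons, glia and vessels 1, Mbp, rose (0.17, adjusted p = 0.0269), as did 557 of the 17267 tested genes. The part of these markers in the fall of the class II genes was not tested.

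With Anakinra alone none of the 10 genes was called against vehicle by limma, and none had an unadjusted p below 0.05. Only 20 genes, 0.116% of those tested, were called in either direction. H2-Aa was at 28.1, 23.5, 27.7, 26.3 and 23.6 TPM (J05, J06, J14, J21 and J22), H2-Ab1 at 29.1, 20.2, 24.8, 17.1 and 16.1 TPM, and Cd74 at 51.2, 35.4, 46.2, 36.2 and 31.5 TPM. All 5 values of each lay within the range of the vehicle mice. The lowest log2 fold change was that of H2-Ab1, -0.35 with a 95% confidence interval from -0.78 to 0.07. For H2-Aa the interval ran from -0.49 to 0.27, for Cd74 from -0.49 to 0.28 and for Cd86 from -0.29 to 0.19. Falls of the size seen with PLX3397 lie outside these intervals, and falls that stay above the lower limits do not. Microglia, border macrophage and pan-myeloid markers showed no called gene either.

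PLX3397+Anakinra lowered the 7 genes that PLX3397 alone lowered, where 9.60% of all tested genes fell against vehicle, and again the groups did not overlap in any of the 7 (background 6.62%). The median log2 fold change was -1.12 over the 10 genes and 0.014 over all tested genes. Both comparisons use the same vehicle mice. H2-Aa was at 7.74, 7.55, 3.60, 7.20 and 4.96 TPM (J03, J04, J09, J10 and J17), a log2 fold change of -2.05 ± 0.18 (SE, adjusted p = 7.76e-09). H2-Eb1 was at 3.63, 4.76, 2.88, 4.85 and 4.29 TPM (-2.004 ± 0.17, SE, adjusted p = 4.58e-09). Means of H2-Aa, H2-Ab1, H2-Eb1 and Cd74 were thus between 0.203 and 0.220 of those in vehicle mice.

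Cd74 was at 12.7, 9.78, 7.77, 8.76 and 10.3 TPM with both drugs (log2 fold change -2.02 ± 0.19, SE, adjusted p = 1.54e-08), and H2-Ab1 at 7.46, 5.91, 5.30, 6.67 and 4.21 TPM (-2.04 ± 0.21, SE, adjusted p = 4.8e-08). Cd86 was at 3.30, 2.85, 3.67, 2.44 and 2.00 TPM, a log2 fold change of -1.20 ± 0.12 (SE, adjusted p = 2.37e-08). H2-DMb1 fell by 1.03 ± 0.15 and H2-DMa by 0.26 ± 0.07 on the log2 scale (SE, adjusted p = 1.8e-05 and 0.0124). Ciita and Cd80 did not pass (adjusted p = 0.133 and 0.503). Cd40 was low in mouse J17, at 0.228 TPM against 0.968 to 1.29 TPM in the other 4, and had an adjusted p of 0.0885, which became 0.045 without vehicle mouse J17B. Against Anakinra alone the same 7 genes fell, where 8.10% of all tested genes did, and they lay wholly below the Anakinra mice (background 7.26%). The log2 fold changes there were -1.94 for H2-Aa, -1.69 for H2-Ab1, -1.82 for H2-Eb1, -1.91 for Cd74, -1.15 for Cd86, -0.93 for H2-DMb1 and -0.32 for H2-DMa.

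Adding Anakinra to PLX3397 gave no called gene among the 10 by limma, and 4 had an unadjusted p below 0.05. Only 26 genes, 0.151% of those tested, were called in this comparison. The mice given both drugs were all below those given PLX3397 alone in H2-Aa (3.60 to 7.74 against 7.76 to 13.6 TPM) and in H2-Eb1 (2.88 to 4.85 against 5.50 to 9.18 TPM). The share of all tested genes that lay wholly below in this comparison was not computed, so how unusual this is remains unknown. In H2-Aa the gap between the groups was narrow, and the log2 fold change was -0.62 ± 0.18 (SE, 95% confidence interval -1.003 to -0.25, adjusted p = 0.257). For H2-Eb1 it was -0.68 ± 0.17 (SE, interval -1.04 to -0.32, adjusted p = 0.137). Without vehicle mouse J17B, which enters this contrast only through the variance, the adjusted p of H2-Eb1 was 0.0408. Cd74 (-0.56, interval -0.95 to -0.17, adjusted p = 0.397) and Cd86 (-0.30, interval -0.53 to -0.06, adjusted p = 0.563) overlapped between the groups. The mean of H2-DMa was 5.32 TPM in both groups.

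Of the marker lists, border macrophage markers differed in the same comparison, with 3 of 8 called lower, among them Pf4 and F13a1 (log2 fold change -1.88 ± 0.22 and -1.50 ± 0.18, SE). None of the 11 microglia markers was called (median -0.08) and none of the 8 pan-myeloid markers (median -0.34). The red blood cell markers had a median of 0.09. Their part in the lower H2-Aa and H2-Eb1 values was not tested. The interaction of PLX3397 and Anakinra is another test, of whether the effect of Anakinra differed between mice with and without PLX3397. It called 0.00% of all tested genes by limma, while 1395 had an unadjusted p below 0.05. None of the 10 genes was among these. The lowest unadjusted p among them was 0.0541, for H2-Eb1, with an interaction of -0.50 on the log2 scale (interval -1.003 to 0.0094).

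**Figure D2:**
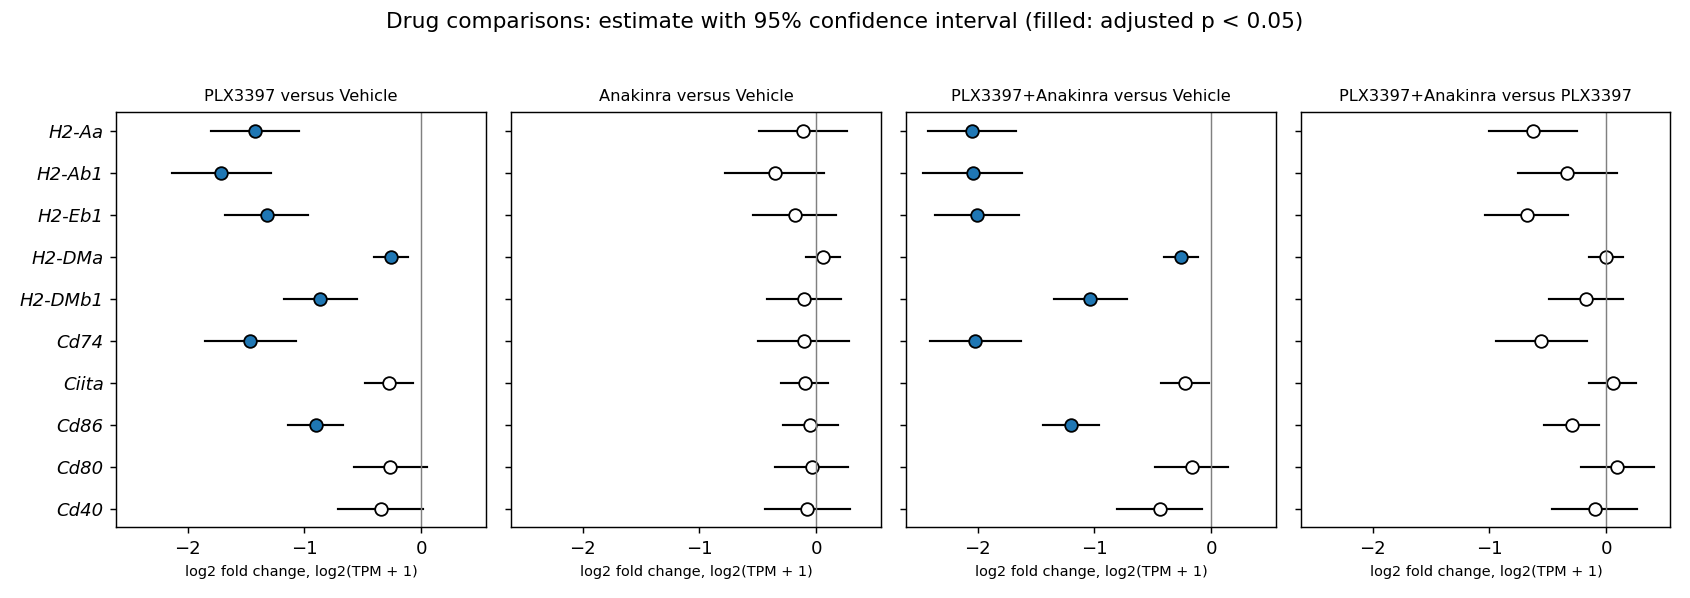
Log2 fold change of log2(TPM + 1) with the 95% confidence interval for the 10 genes in 4 comparisons, filled where the adjusted p from limma was below 0.05. In both comparisons of PLX3397 with vehicle 7 points are filled and left of 0, in the Anakinra comparison every interval crosses 0, and on adding Anakinra to PLX3397 the intervals of H2-Aa, H2-Eb1, Cd74 and Cd86 lie left of 0 without reaching the threshold.

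Against sham, all 10 genes were still raised under Anakinra (25.1% of all tested genes rose), 6 under PLX3397 (22.7%) and 4 under PLX3397+Anakinra (20.7%). These comparisons share the sham mice. The log2 fold changes of H2-Aa were 2.16 with Anakinra, 0.85 with PLX3397 and 0.22 with both drugs, where the interval ran from -0.18 to 0.63 (adjusted p = 0.386). For Cd74 they were 2.33, 0.97 and 0.42 (adjusted p = 0.104 with both drugs), and for H2-Eb1 2.19, 1.05 and 0.37 (adjusted p = 0.116 with both drugs). The sham and PLX3397+Anakinra mice overlapped in these 3 genes. These calls depend on the shared spread. In a limma fit of sham and PLX3397+Anakinra mice alone, Cd74 and H2-Eb1 were called raised (adjusted p = 0.0266 and 0.0344). Cd86 remained above sham in every treated group, with log2 fold changes of 1.94, 1.08 and 0.79, and its lowest mouse with both drugs (2.00 TPM) was above the highest sham mouse (1.44 TPM). H2-DMb1 remained raised too, at 0.77 ± 0.16 with both drugs (SE, adjusted p = 0.000472).

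The other calls against sham were less stable. With both drugs Cd80 (0.43, adjusted p = 0.0375) and H2-Ab1 (0.57, adjusted p = 0.0397) were called. Cd80 was lost without PLX3397+Anakinra mouse J04, J09 or J10 or sham mouse J07, J15 or J16 (adjusted p = 0.0581 to 0.124). H2-Ab1 was lost without PLX3397+Anakinra mouse J03, J04 or J10 or sham mouse J08, J15 or J16 (adjusted p = 0.0564 to 0.167), so that only 2 calls were left without J04, J10, J15 or J16. Cd74 was called without vehicle mouse J17B (adjusted p = 0.0243). Under PLX3397, Cd80 was called without J01 (adjusted p = 0.0109) and Cd40 without J12 (adjusted p = 0.0479). Under Anakinra, Ciita (adjusted p = 0.0356) was lost without Anakinra mouse J05 or J14 or sham mouse J08 or J15 (adjusted p = 0.0638 to 0.124).

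The mean log2(TPM + 1) of H2-Aa, H2-Ab1, H2-Eb1 and Cd74 was taken relative to that of each marker list in every mouse. Relative to the 11 microglia markers the difference was -2.45 to -1.93 in sham and -2.18 to -1.11 in vehicle mice, where J17B was the lowest. It was -1.95 to -1.59 with PLX3397 and -2.35 to -2.14 with both drugs. Mice given both drugs therefore lay wholly below those given PLX3397 alone and within the range of sham. Relative to the 8 border macrophage markers the groups overlapped, with medians of 0.79 in sham, 1.30 in vehicle, 1.21 in Anakinra, 0.85 in PLX3397 and 1.12 in PLX3397+Anakinra mice. The added 1 shrinks falls of markers near or below 1 TPM on this list. Examples are Cd163 (means of 1.45 TPM in vehicle and 0.305 with PLX3397) and Lyve1 (0.526 and 0.223 TPM). Relative to the 8 pan-myeloid markers sham mice were the highest (-1.61 to -1.23), above all TBI mice (-2.73 to -1.69). These differences are descriptions and were not tested.

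**Figure D3:**
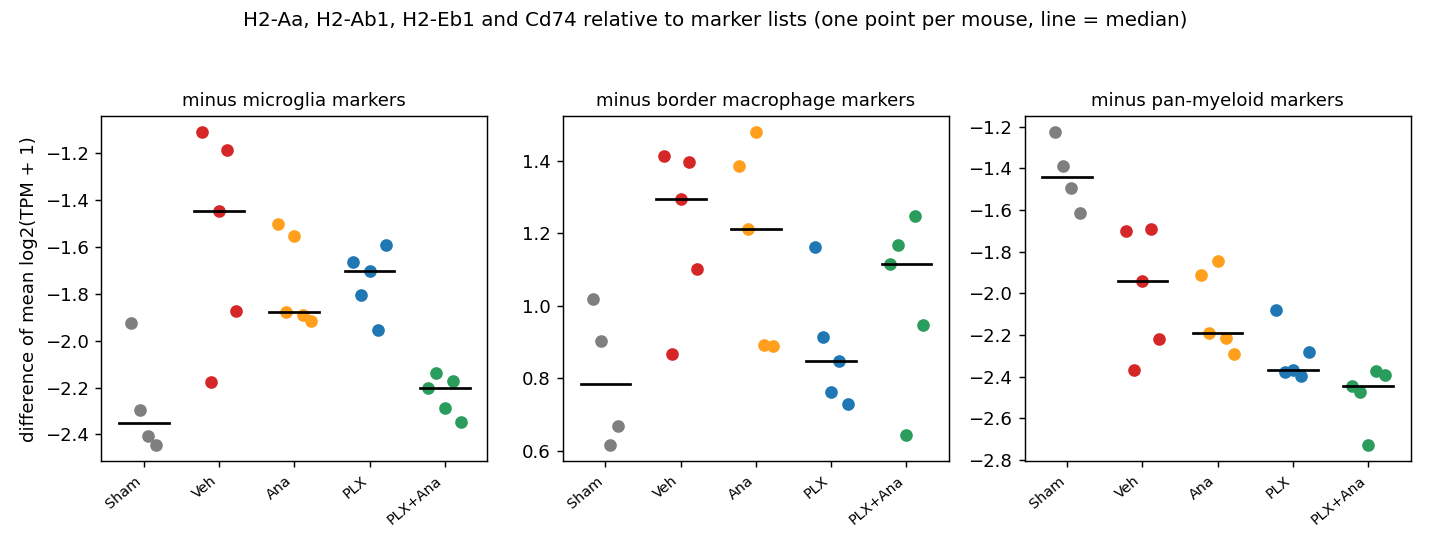
Mean log2(TPM + 1) of H2-Aa, H2-Ab1, H2-Eb1 and Cd74 minus the mean of the microglia, border macrophage or pan-myeloid marker list, with 1 point per mouse and the median of each group, axes scaled per panel. Relative to microglia markers the mice given both drugs (-2.35 to -2.14) sit below those given PLX3397 (-1.95 to -1.59), relative to border macrophage markers the groups overlap, and relative to pan-myeloid markers sham is highest.

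Genes of peptide processing and class II turnover mostly moved in the same direction. This list of 10 also holds March1, March8, Cd63 and Cd9. Of the 10 genes 9 rose with injury, 6 fell with PLX3397 and 9 fell with PLX3397+Anakinra. Of all tested genes 26.6%, 6.66% and 9.60% did so. Ctss, cathepsin S, which trims the invariant chain, went from 101 ± 7.99 TPM in sham (SD, n = 4) to 808 ± 91.8 in vehicle, 403 ± 80.8 with PLX3397 and 265 ± 34.7 with both drugs (SD, n = 5). It was the 1 processing gene called on adding Anakinra to PLX3397 (log2 fold change -0.59 ± 0.11, SE, adjusted p = 0.0142). Ifi30, the thiol reductase of the endosome, fell by 1.11 ± 0.12 with PLX3397, and Lgmn, the asparaginyl endopeptidase, by 0.74 ± 0.09 on the log2 scale (SE). March1, a ubiquitin ligase that removes class II from the surface, was not called after injury (log2 fold change -0.03 ± 0.07, SE). March8, another such ligase, was 1 of those that rose (0.28 ± 0.05, SE, adjusted p = 5.5e-05). The class II chaperones H2-Oa and H2-Ob, which restrain H2-DM, rose with injury and fell with PLX3397 (-0.85 ± 0.15 and -0.60 ± 0.13, SE, adjusted p = 0.000263 and 0.0022), whereas H2-DMb2 was called in neither (-0.07 ± 0.23 with PLX3397). H2-DMb1 and H2-DMb2 are close paralogs, and how reads shared between them were counted is not stated.

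Of 7 factors that bind the X and Y boxes, 1 fell with PLX3397, where 6.66% of all tested genes did, and the median log2 fold change was 0.051. Only Nfya, the alpha subunit of NF-Y, was called lower with PLX3397 (log2 fold change -0.43 ± 0.07, SE, adjusted p = 6.04e-05) and with both drugs (-0.35 ± 0.07, adjusted p = 0.000474). Nfya alone rose with injury (0.67 ± 0.07). Of all tested genes 9.60% fell with both drugs and 26.6% rose with injury. Rfx5, the large RFX subunit, was at 14.002 ± 0.258 TPM in sham (SD, n = 4), 14.2 ± 0.621 in vehicle and 15.2 ± 1.09 with PLX3397 (SD, n = 5). Rfxap and Nfyb were lower after injury (-0.18 ± 0.06 and -0.31 ± 0.07, SE, adjusted p = 0.0154 and 0.000711), as were 4778 of the 17267 tested genes.

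Interferon-gamma, which induces Ciita in many cells, was listed at 0 for Ifng in all sham and vehicle mice and reached 0.227 TPM at most. Of the 8 tested genes of its axis, 6 rose with injury, 2 fell with PLX3397 and 5 with PLX3397+Anakinra. Of all tested genes 26.6%, 6.66% and 9.60% did so. On adding Anakinra to PLX3397, 0 of the 8 were called. Those that fell with PLX3397 were Irf8, a myeloid transcription factor (-1.24 ± 0.13, SE), and the receptor chain Ifngr1 (-0.45 ± 0.09). Irf1, which acts upstream of Ciita, was called lower with both drugs (-0.31 ± 0.09, SE, adjusted p = 0.0205), and with PLX3397 alone it was at -0.11 ± 0.09 (adjusted p = 0.525). The difference between these comparisons is the contrast of both drugs with PLX3397 alone, in which Irf1 was not called (adjusted p = 0.717).

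Other ligands and receptors on antigen-presenting cells included inhibitors of T cells. Of 9 tested, 7 rose with injury, 5 fell with PLX3397 and 6 with PLX3397+Anakinra (26.6%, 6.66% and 9.60% of all tested genes). Vsir (VISTA) and the receptor Havcr2 (TIM-3) fell the most with PLX3397 (-1.09 ± 0.08 and -1.20 ± 0.13 on the log2 scale, SE). Cd274 (PD-L1) rose by 1.32 ± 0.10 with injury and was not called with PLX3397 (-0.10 ± 0.09, SE, adjusted p = 0.587). Of 8 genes of CD40 signalling 7 rose with injury, where 26.6% of all tested genes did, and Traf3 fell, with Nfkb2 the highest (1.47 ± 0.10, SE). With PLX3397 their log2 fold changes lay between -0.29 and 0.018, with a median of -0.19, none passed the limma test, and 3 (Nfkb2, Relb and Map3k14) had an unadjusted p below 0.05.

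The defining genes of T cells, which read class II, were low in these libraries. Means of Cd3d, Cd3e and Cd3g were at most 0.263 TPM in any group, Trac was listed at 0 in all 24 libraries, and of the T cell partners of these ligands Ctla4 and Cd40lg had group means of at most 0.1001 TPM. Cd4 was at 15.5 to 19.3 TPM in the group means, sham included, without the Cd3 genes. Other T cell partners were not low throughout. Lag3, a receptor for class II, rose from 5.90 ± 0.427 TPM in sham (SD, n = 4) to 27.5 ± 2.03 in vehicle (SD, n = 5) and fell with PLX3397 (-0.44 ± 0.10, SE, adjusted p = 0.00481). Pdcd1 (PD-1) rose from 0.0706 ± 0.0602 to 1.72 ± 0.688 TPM and fell with PLX3397 (-0.60 ± 0.16, SE, adjusted p = 0.0171). Cd28 rose with injury from 0.163 ± 0.0794 (SD, n = 4) to 1.52 ± 0.597 TPM (SD, n = 5). Among B cell genes Ms4a1 had group means of at most 0.122 TPM and Ighm was at 0 throughout. Values of 0 in every library, as for Ighm and Trac, do not show whether reads of these genes were counted. The 1 tested B cell marker, the receptor chain Cd79b, moved with the class II genes. It rose from 0.412 ± 0.147 TPM in sham (SD, n = 4) to 2.20 ± 0.306 TPM in vehicle (SD, n = 5, adjusted p = 8.8e-08) and fell with PLX3397 (-0.63 ± 0.13, SE, adjusted p = 0.00183), and its part in their change was not tested. Among 9 dendritic cell markers 5 were tested. With PLX3397 1 of them fell, Clec10a (-0.79 ± 0.17, SE, adjusted p = 0.0032). With both drugs 3 fell, Clec10a, Itgax (CD11c, -0.83 ± 0.17) and the transcription factor Batf3 (-0.52 ± 0.15, SE, adjusted p = 0.0199). Of all tested genes 6.66% fell with PLX3397 and 9.60% with both drugs. Flt3 and Zbtb46 were called in neither drug comparison (0.11 and 0.0079 with both drugs).

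Within the 4 TBI groups some of the genes varied together and others did not. After the group means had been removed, H2-Aa, H2-Ab1, H2-Eb1 and Cd74 varied together over the 20 mice, with Pearson correlations of log2(TPM + 1) between 0.74 and 0.85. For H2-DMa and its partner H2-DMb1 r was -0.33, and H2-DMb1 followed H2-Aa (0.65) more than Cd74 (0.30). Cd80 and Cd40 varied together (0.63). Ciita was only loosely related to the class II chains (0.11 to 0.32) and to Cd74 (0.38), and Cd86 to none of these 4 above 0.28. These are descriptions over mice that share dissection and group.

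**Figure D4:**
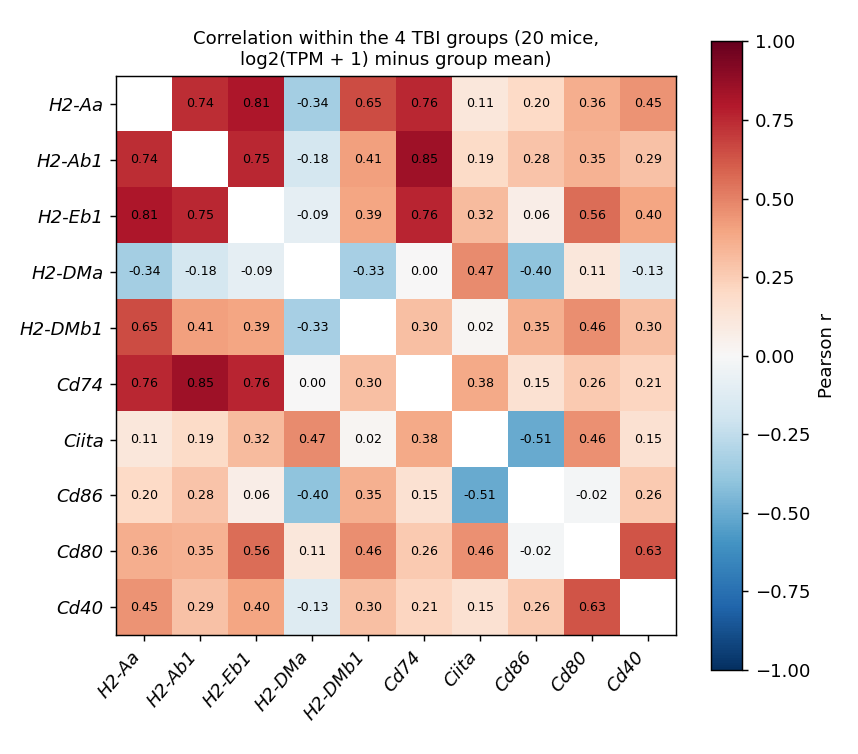
Pearson r between the 10 genes over the 20 TBI mice, computed on log2(TPM + 1) after subtracting the mean of each group, with red for positive and blue for negative values. The block of H2-Aa, H2-Ab1, H2-Eb1 and Cd74 (0.74 to 0.85) stands out, and the row of H2-DMa is pale or blue except with Ciita (0.47).

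The genes most like the mean of H2-Aa, H2-Ab1, H2-Eb1 and Cd74 across all 24 libraries were Arhgap30, Wdfy4, Themis2, Syk and Ikzf1, with Pearson r between 0.976 and 0.980. Within the TBI groups, after subtraction of the group means, they were Elk3, Cmklr1, Tbxas1, Hcls1 and Gpr65 (0.861 to 0.873 over 20 libraries). No gene was on both lists of 5. Of the costimulatory genes, Cd86 followed this mean across all libraries (0.92) but hardly within the groups (0.20), and Ciita reached 0.70 and 0.27.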

How the data were processed

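RNA of 24 mice was sequenced as oligo dT libraries, 1 per mouse. The authors mapped the reads in CLC Genomics Workbench to the mouse genome (GRCm38 in the submitters' processing notes) and deposited TPM per gene and library. How the counting treated strand and reads shared between paralogs is not given in the sources used here. TPM keeps no depth. Values were transformed as log2(TPM + 1), genes averaging 0.5 TPM or more were kept, and all 24 libraries entered 1 fit with a mean per group in limma 3.58.1 (R 4.3.3, variance trend on expression). p-values were moderated, two-sided and adjusted by Benjamini-Hochberg over all tested genes. The steps were tested on simulated data. The 10 genes and the lists of other genes were chosen with earlier results of these data known. Named genes are the 10 genes, genes of those lists, and the 5 with the highest correlation in each likeness ranking. Groups came from the labels. Alternatives covered the pseudocount, filter, scaling, variance trend, samples in the fit, call rule, a block on animal digits and each mouse left out.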

Additional observations from a re-analysis of the deposited data

Results flagged for a closer look

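Ciita in PLX3397 mouse J19 stood apart from the rest of its group, at 0.838 TPM against 0.497 TPM in the nearest of the other 4 mice. The gap was 0.73 of the range of the group, above Dixon's 95% critical value of 0.71 for 5 samples. It was the 1 value found among 50 sets of a gene and a group, and chance alone gives about 1 in 20.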

How the results depend on the processing

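Read depth is unknown, and 5 mice a group limit the precision. When single mice were left out, the called genes of the 10 numbered 9 to 10 in vehicle against sham, 6 to 8 in PLX3397 against vehicle, 0 in Anakinra against vehicle, 7 to 8 in PLX3397+Anakinra against vehicle, 0 to 1 against PLX3397 and 7 against Anakinra. Against sham they numbered 6 to 7 for PLX3397, 9 to 10 for Anakinra and 2 to 5 for PLX3397+Anakinra. A mean of at least 5 TPM left 6 of the 10 genes to test, and 6 were called in vehicle and in Anakinra and 2 in PLX3397+Anakinra against sham. Without the filter 2 were called in the last. With an unadjusted p below 0.05, a ratio above 2 and a difference above 4 TPM, 6 were called in vehicle, 6 in Anakinra, 3 in PLX3397 and 0 in PLX3397+Anakinra against sham. The cause of the unfiltered count was not tested.

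Uncalled differences near 0 changed sign. With a mouse left out this held in Anakinra against vehicle for H2-Aa (-0.2923 to 0.0059), Cd74 (-0.3364 to 0.0085), Cd86 (-0.0917 to 0.0271), Cd80 (-0.1103 to 0.0434) and Cd40 (-0.1663 to 0.0294), in PLX3397+Anakinra against PLX3397 for H2-DMa (-0.0523 to 0.0309), Cd80 (-0.0418 to 0.1762) and Cd40 (-0.2247 to 0.0557), and in the interaction for H2-Ab1 (-0.11 to 0.20), H2-DMb1 (-0.1784 to 0.0351), Cd80 (-0.003 to 0.215) and Cd40 (-0.15 to 0.13), all on the log2 scale. The interaction of H2-Ab1 was -0.011 with a pseudocount of 0.1, and H2-DMa differed by -0.0014 between both drugs and PLX3397 after rescaling.

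Vehicle and PLX3397 mice share 3 animal digits. Deviations of these pairs correlated at 0.22, 0.022 and -0.16. Unmatched pairs were not compared, so these values cannot decide whether the digits pair the mice. With the replicate block over these 6 mice 6 of the 10 genes were called, and 5 without the block, which was added after seeing the data. In all genes 703 and 747 were called.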

Other observations

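Ratios within the group of class II chains and Cd74 are given as values. The TPM of H2-Aa per H2-Ab1 had a median of 1.22 in sham (1.12 to 2.37), 0.983 in vehicle (0.882 to 1.35), 1.16 with Anakinra (0.966 to 1.54), 1.35 with PLX3397 (1.04 to 1.56) and 1.08 with both drugs (0.679 to 1.28). Cd74 per H2-Aa had medians of 1.55, 1.45, 1.51, 1.44 and 1.64 in the same order. All groups overlapped in both ratios.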
